A study of Mus musculus with 19 samples.

Results

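Among 18193 mouse genes with a probe set of their own, 8 genes chosen for high signal in the embryonic tooth germ are described: Serpinb5, Serpinb1b, Tmprss11a, Pof1b, Eppk1, Mir205hg, Ifitm1 and Acaa1b. They were listed by name under a heading of epithelial serpin, protease and cytolinker genes with high tooth germ values. Mir205hg, Ifitm1 and Acaa1b belong to none of these classes. All 8 were thus selected on the tooth germ log2 values themselves, and no test is given for those. Each probe set (several short probes read as 1 value) was used where it names only that gene, and a gene with several is represented by the one with the highest mean. The 8 genes hold 11 such probe sets, of which 4 belong to Serpinb5.

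The arrays were Affymetrix mouse expression arrays, 1 per RNA sample and 19 in all, hybridised with biotin-labelled cRNA from wild-type ICR embryos dissected by hand, with the plug day counted as E0.5. The tooth series consists of E13.5 tooth germ (n = 3) and of bodies spanning E11.5 to E13.5 (n = 3). The lens series consists of E10.5 lens, E11.5 lens and E12.5 lens (n = 3 each) and of bodies spanning E10.5 to E12.5 (n = 4). No group carries an allele or a treatment, a body sample stands for a range of stages, and the labels do not say whether arrays of a group come from separate litters or pools, so p-values measure only the spread between these arrays.

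Oral epithelium is the surface layer of the early mouth, and the tooth germ forms where it thickens, folds inward and meets the mesenchyme of the jaw. Such an epithelium is held together by keratin filaments that desmosomes and cytolinkers fasten to the cell border, and its surface proteases are kept in check by inhibitors, among them serpins. A serpin traps its protease by presenting a loop as bait, and clade B serpins act mainly inside the cell. The epithelial identity programme depends on the transcription factor p63, encoded by Trp63.

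Mir205hg encodes no protein, and its transcript is known as the host of miR-205, an epithelial microRNA that dampens ZEB factors and so helps to keep cells epithelial. Mir205hg (Entrez gene 70800) lies on chr1:193506460-193510210 of assembly GRCm38.p6, and the hairpin of Mir205 lies within it at chr1:193507463-193507530 on the minus strand. The 2 mature strands from RefSeq are shown because this RNA is what the host gene is known for. Capitals mark the seed, bases 2 to 8, and no other mature miRNA in that table has either seed.
mmu-miR-205-5p: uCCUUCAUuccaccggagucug
mmu-miR-205-3p: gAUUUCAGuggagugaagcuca
The arrays measured the host transcript, so no level of either strand is given.

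RefSeq promoters, 250 bases before the start and 50 after it, were found for 7 of the 8 genes. The motifs searched on both strands were AP-1 (TGANTCA), Grainyhead (AACCNGTT), a p63 pair (CATG, any 6 bases, CATG), the TATA box (TATAAA), Klf (CCACACCC) and Ets (ACCGGAA). The upstream bases of 2 promoters are shown since they hold the matches of this set that lie before the start, with each match in capitals. The Serpinb5 window is chr1:106860925-106861174 and the Ifitm1 window chr7:140967826-140968075, both on the plus strand. The Ifitm1 window lies inside the gene's own span (chr7:140967429-140969827), so it precedes a start within that span and not the gene's first base.
Serpinb5: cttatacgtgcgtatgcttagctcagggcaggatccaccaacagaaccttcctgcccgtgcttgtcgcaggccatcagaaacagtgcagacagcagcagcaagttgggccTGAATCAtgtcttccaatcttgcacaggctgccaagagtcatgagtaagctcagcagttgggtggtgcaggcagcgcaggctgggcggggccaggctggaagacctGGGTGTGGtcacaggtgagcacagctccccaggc
Ifitm1: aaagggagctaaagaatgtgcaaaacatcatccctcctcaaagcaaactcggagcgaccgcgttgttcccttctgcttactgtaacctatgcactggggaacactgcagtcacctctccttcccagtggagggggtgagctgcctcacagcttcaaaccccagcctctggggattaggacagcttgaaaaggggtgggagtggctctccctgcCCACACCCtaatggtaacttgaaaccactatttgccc
The Serpinb5 promoter holds an AP-1 match at -140 and a Klf match at -34, and the Ifitm1 promoter a Klf match at -37. Mir205hg has a Grainyhead match at 17 bases after the start. Among all 32851 promoters of the same length, 7.81% hold the AP-1 letters, 3.56% the Klf letters and 2.09% the Grainyhead letters. The p63 pair (0.712% of all promoters), the TATA box (13.6%) and the Ets letters (3.72%) were in none of the 7. The 2 matches in the Serpinb5 window do not overlap, starts are those of the RefSeq table, and a match is a description of the window only.

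Levels below are log2 intensity, averaged with the standard deviation (SD) over arrays; differences are on the log2 scale, with the fit's standard error (SE) where a test was made. The 27 control probe sets without a target had a 95th percentile of 4.71, which serves as the background level. A probe set was tested where at least 3 arrays exceeded 5.46, the median of all values, which left 13320 genes and all 8 of the chosen ones. Only Eppk1, Ifitm1 and Acaa1b exceeded that filter on 3 arrays outside the tooth germ, so the other members entered the tested set through the tooth germ alone. Arrays of a group correlated at 0.965 to 0.995 over all probe sets. Lens replicate 3 at E10.5 stood apart, with a summed intensity of 111704 over 12 lens marker genes against 28370 and 27337 in replicates 1 and 2. Tooth germ replicate 3 carried 1989 of that sum, against 944 and 874 in the other tooth germ arrays. The members' own signals in lens were low, as given for each gene.

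**Figure D1:**
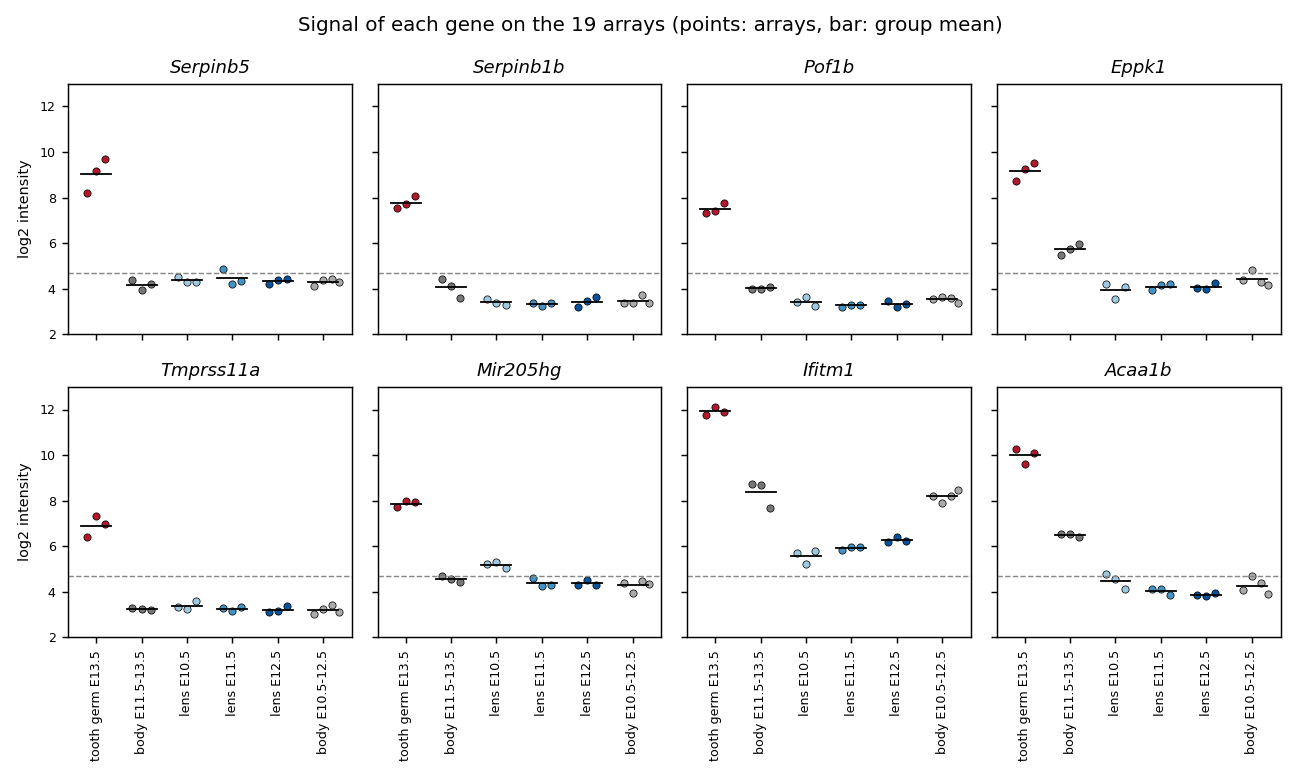
Log2 intensity (vertical axis) of the 8 genes on each of the 19 arrays (points), by group along the horizontal axis, with bars at the group means and a dashed line at the background level of 4.71. In each panel the 3 tooth germ arrays lie above the other 16 arrays.

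The serpin Serpinb5 (Entrez gene 20724; chr1:106861175-106883348), which encodes maspin, an epithelial serpin that does not inhibit proteases in the usual way, read 8.21, 9.15 and 9.68 in tooth germ, against 4.39, 3.94 and 4.21 in the tooth-series body. It read 4.49, 4.31 and 4.29 in E10.5 lens, 4.87, 4.19 and 4.34 in E11.5 lens, 4.19, 4.37 and 4.41 in E12.5 lens, and 4.12, 4.39, 4.41 and 4.28 in the lens-series body. Its tooth germ arrays were all high and spread widely (range 1.47), while only 1 of the other 16 arrays, E11.5 lens replicate 1, passed the background level. Tooth germ exceeded the tooth-series body by 4.84, which is at least 19.8-fold once the body is set to the background level.

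Serpinb5 was read by 3 further probe sets. The brightest of them stood at 9.53, 10.03 and 10.07 in tooth germ, against 3.36, 3.50 and 3.20 in the tooth-series body. Another stood at 8.06, 8.71 and 8.73 in tooth germ, against 3.26, 3.09 and 3.10 in that body, and the dimmest at 6.80, 7.46 and 6.99, against 3.87, 4.26 and 3.61. All 4 probe sets separated tooth germ from every other array, with differences of 4.84, 6.52, 5.35 and 3.17, or at least 19.8-, 36.1-, 13.8- and 5.20-fold. The size of the difference thus varied with the probe set while its direction did not.

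**Figure D2:**
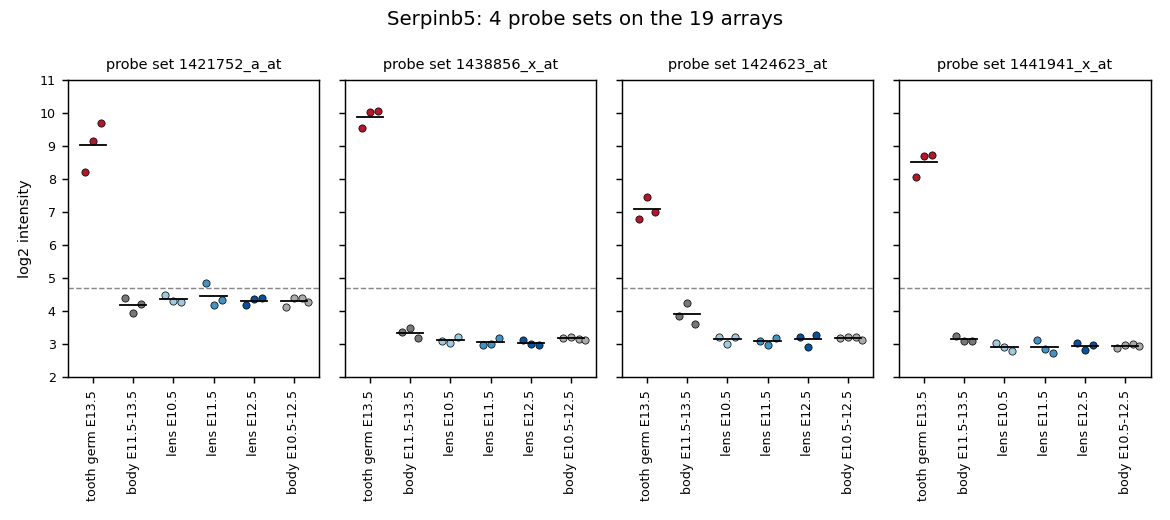
Log2 intensity (vertical axis) of the 4 Serpinb5 probe sets on each array (points), by group, with bars at group means and the background level dashed. Tooth germ arrays lie between 6.80 and 10.07 over the 4 sets, and the other arrays lie between 2.74 and 4.87.

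Serpinb1b (Entrez gene 282663; chr13:33078504-33094380), a mouse relative of the human serpin that inhibits neutrophil elastase, read 7.54, 7.73 and 8.06 in tooth germ, against 4.45, 4.13 and 3.60 in the tooth-series body. In lens it lay between 3.19 and 3.63 over the 9 arrays, and in the lens-series body it read 3.39, 3.39, 3.74 and 3.38. All 16 arrays outside the tooth germ were below the background level, and the tooth germ difference over its body was 3.72, at least 8.39-fold. Clade B serpin genes lie in clusters on chromosomes 1 and 13, and near-identical copies can share probes, so a signal of Serpinb1b could include its neighbours. Serpinb1a averaged 3.68 ± 0.26 in tooth germ and 4.31 ± 0.60 in the tooth-series body (SD, n = 3 each), under the background level in both.

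The other clade B serpins were tested as a list, which holds 24 genes without the 2 described, of which 16 were measured and 4 passed the filter. Those 4 were called higher in tooth germ than in its body, where 16.6% of all tested genes were higher and 25.3% lower by limma's test with Benjamini-Hochberg adjustment (23.7% and 20.8% under quantile normalization). The other 12 had too little signal to be tested, and Serpinb9 passed through the tooth germ arrays alone, so the count says nothing of the family as a whole. Serpinb9, an inhibitor of granzyme B, averaged 6.80 ± 0.25 in tooth germ and 5.35 ± 0.10 in body (SD, n = 3 each), a difference of 1.45 ± 0.33 (SE, limma adjusted p = 0.00155). Serpinb6b was higher by 1.24 ± 0.26 and Serpinb6a by 0.95 ± 0.16, with limma adjusted p = 0.000734 and 7.8e-05. Serpinb2, which was not tested, averaged 3.85 ± 0.39 in tooth germ and 4.67 ± 0.20 in body, under the background level in both. The median difference over all tested genes was -0.04.

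Tmprss11a (Entrez gene 194597; chr5:86410410-86469175), a membrane-anchored serine protease of the airway trypsin-like group, read 6.40, 7.32 and 6.99 in tooth germ, against 3.29, 3.25 and 3.19 in the tooth-series body. It lay between 3.10 and 3.61 over the 9 lens arrays and read 3.04, 3.23, 3.43 and 3.10 in the lens-series body. No array outside the tooth germ came near the background level, and the tooth germ difference over its body was 3.66, at least 4.59-fold.

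The genes next to it on chromosome 5 did not share that signal. Tmprss11d, Tmprss11e, Tmprss11f and Tmprss11g averaged 3.21 ± 0.20, 3.26 ± 0.20, 3.39 ± 0.43 and 3.33 ± 0.17 in tooth germ, against 3.16 ± 0.07, 3.21 ± 0.13, 3.01 ± 0.08 and 2.87 ± 0.02 in the tooth-series body (SD, n = 3 each). All of these averages are under the background level, so no difference could be read for these 4 relatives. Among 10 tested membrane-anchored proteases and their inhibitors other than Tmprss11a, 5 were higher and 2 lower in tooth germ than in its body. The shares over all tested genes were 16.6% higher and 25.3% lower. Tmprss13, another epithelial protease of the class that passed the filter through tooth germ arrays alone, averaged 7.45 ± 0.43 in tooth germ and 5.04 ± 0.25 in body (difference 2.41 ± 0.19, limma adjusted p = 8.28e-09). Spint1, the Kunitz inhibitor of matriptase, was higher by 1.78 ± 0.17 (limma adjusted p = 1.04e-07), while Tmprss2 fell by 1.68 ± 0.18 on the log2 scale (limma adjusted p = 5.2e-07).

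Eppk1 (Entrez gene 223650; chr15:76101488-76120195) encodes epiplakin, a plakin repeat protein that binds keratin networks. It read 8.74, 9.26 and 9.54 in tooth germ, against 5.47, 5.76 and 5.96 in the tooth-series body. It read 4.21, 3.54 and 4.08 in E10.5 lens, 3.93, 4.16 and 4.19 in E11.5 lens and 4.04, 3.97 and 4.25 in E12.5 lens, against 4.37, 4.80, 4.29 and 4.18 in the lens-series body. It was above background in both tooth-series groups, so its difference of 3.45, or 10.9-fold, is a measured size, while every lens array was under the background level.

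Pof1b (Entrez gene 69693; chrX:112638427-112698711), an actin-binding protein of epithelial junctions, read 7.33, 7.42 and 7.76 in tooth germ, against 4.01, 3.97 and 4.06 in the tooth-series body. It lay between 3.20 and 3.63 over the 9 lens arrays and read 3.56, 3.62, 3.57 and 3.39 in the lens-series body. The tooth germ arrays stood well apart from the other 16, which were all under the background level, and the difference over the tooth-series body was 3.49, at least 6.94-fold.

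Desmosomes and other cytolinkers, to which keratin filaments attach, were examined as lists. Of 7 tested desmosome genes, 6 were higher than in the tooth-series body and 1 was lower, with a median difference of 1.51. Dsg2, a desmosomal cadherin, averaged 11.47 ± 0.09 in tooth germ and 8.84 ± 0.29 in body (SD, n = 3 each), a difference of 2.64 ± 0.31 (limma adjusted p = 2e-06). Pkp1, a plaque protein of stratified epithelium, was higher by 2.54 ± 0.17 (limma adjusted p = 1.2e-09), whereas Pkp2, the plakophilin known from heart and simple epithelium, fell by 1.65 ± 0.30 on the log2 scale (limma adjusted p = 0.000213). Of 6 cytolinker genes other than Eppk1, 5 were higher and none lower. They include Dsp, the plakin of desmosomes (2.28 ± 0.23, limma adjusted p = 2.64e-07), Plec, which encodes plectin (1.76 ± 0.16, limma adjusted p = 7.62e-08), and Dst, which encodes dystonin (1.49 ± 0.27, limma adjusted p = 0.000204). Tight junction genes were split, with 3 higher and 3 lower of 13 tested (5 and 3 under quantile normalization). For all these lists, 16.6% of all tested genes were higher and 25.3% lower.

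Mir205hg read 7.70, 7.97 and 7.95 in tooth germ, against 4.69, 4.56 and 4.45 in the tooth-series body. It read 5.24, 5.32 and 5.02 in E10.5 lens, 4.61, 4.26 and 4.31 in E11.5 lens and 4.31, 4.52 and 4.31 in E12.5 lens, against 4.39, 3.94, 4.48 and 4.36 in the lens-series body. Beside the tooth germ, only the 3 arrays of E10.5 lens passed the background level. The tooth germ difference over its body was 3.31, at least 8.98-fold, with the narrowest spread over tooth germ arrays of the 8 genes (range 0.26).

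Ifitm1 (Entrez gene 68713; chr7:140967429-140969827), an interferon-induced transmembrane protein also known from early embryonic tissues, read 11.75, 12.09 and 11.91 in tooth germ, against 8.74, 8.67 and 7.68 in the tooth-series body. It read 5.69, 5.20 and 5.77 in E10.5 lens, 5.82, 5.98 and 5.99 in E11.5 lens and 6.20, 6.38 and 6.23 in E12.5 lens, against 8.21, 7.89, 8.20 and 8.45 in the lens-series body. It was above background on every array, with tooth germ highest, both bodies in between and overlapping each other, and lens lowest. Tooth germ exceeded its body by 3.55, or 11.7-fold.

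Of 6 other measured Ifitm genes 3 passed the filter, and each of these was called higher in tooth germ than in the tooth-series body. Over all tested genes 16.6% were higher and 25.3% lower (23.7% and 20.8% under quantile normalization). With 3 genes untested, the count says nothing of the family as a whole. Ifitm2 averaged 10.21 ± 0.20 in tooth germ and 7.76 ± 0.35 in body (SD, n = 3 each), a difference of 2.44 ± 0.19 (limma adjusted p = 5.79e-09). Ifitm3 was higher by 1.10 ± 0.23 and Ifitm5, a bone-forming cell gene, by 0.52 ± 0.16 (limma adjusted p = 0.000777 and 0.0113). The summed intensity of the 6 genes was 1433 to 1779 in tooth germ and 425 to 499 in the tooth-series body. It was higher than in tooth germ in lens (2681 to 3124 at E10.5, 2585 to 3392 at E11.5 and 2336 to 3207 at E12.5). It was also higher in the lens-series body (2592 to 3513). Ifitm2, Ifitm3 and Ifitm5 lie close together on chromosome 7 with Ifitm1 and have similar sequences, so their probe sets can share signal.

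Acaa1b (Entrez gene 235674; chr9:119148043-119157093), a peroxisomal thiolase that ends a round of fatty acid shortening, read 10.25, 9.62 and 10.11 in tooth germ, against 6.55, 6.52 and 6.39 in the tooth-series body. It read 4.76, 4.55 and 4.13 in E10.5 lens, 4.13, 4.10 and 3.88 in E11.5 lens and 3.86, 3.83 and 3.93 in E12.5 lens, against 4.09, 4.68, 4.39 and 3.91 in the lens-series body. Both tooth-series groups were above background, with a difference of 3.50, or 11.3-fold, and in the lens series only E10.5 replicate 1 passed that level.

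The other genes of its pathway were tested as a list. Of 14 tested genes of peroxisomal beta-oxidation, none was higher in tooth germ than in its body and 5 were lower, with a median difference of -0.23. Over all tested genes 16.6% were higher and 25.3% lower. Ehhadh, the bifunctional enzyme earlier in the cycle, fell by 1.65 ± 0.28 and Crot, which exports shortened acyl groups, by 1.30 ± 0.20 on the log2 scale (limma adjusted p = 0.00011 and 3.77e-05). The close copy Acaa1a averaged 9.25 ± 0.41 in tooth germ and 9.18 ± 0.17 in body, a difference of 0.08 ± 0.22 that did not pass the test (limma adjusted p = 0.806). The 2 thiolase genes share much sequence, so a split of their signal between probe sets is uncertain.

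In all, each of the 8 genes had its 3 tooth germ arrays above all 16 other arrays, as did 8.72% of tested genes; the members were chosen for such values, and nothing is read from that count. In whole tissue, fewer cells of a type and less RNA per cell cannot be told apart. Bacterial control probe sets (9 of them) averaged 10.30 to 10.65 on the tooth germ arrays and 8.34 to 9.08 on the tooth-series body arrays, so that this technical difference and the tissue cannot be told apart.

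The order of the tooth germ replicates is given as a description, since the members were chosen for these values. Replicate 1 was lowest for 7 of the 8 genes, with Acaa1b the exception, and replicate 3 was highest for 4 and replicate 2 for 3. The summed intensity of 21 basal epithelium markers was 8829, 11602 and 12444 in tooth germ replicates 1, 2 and 3, the same order as for Serpinb5, Serpinb1b, Pof1b and Eppk1. It was 3195, 3085 and 3015 in the tooth-series body. Other epithelial lists ran either way over tooth germ replicates 1, 2 and 3. The desmosome sum rose (10131, 11828 and 12173). The sums of dental epithelium genes (2777, 2564 and 2415), simple epithelium keratins (1469, 1286 and 1128) and tight junction genes (2981, 2679 and 2581) fell. The summed intensity of 11 dental mesenchyme markers was 6960, 7163 and 6901 in tooth germ, against 1882, 1751 and 1624 in body. The part of marker content in the members' values was not tested.

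The tissue labels were checked against their markers. For all counts that follow, 16.6% of all tested genes were higher in tooth germ than in its body and 25.3% lower. Under quantile normalization these shares were 23.7% and 20.8%. Of 18 tested basal epithelium genes, 12 were higher in tooth germ than in its body and none lower, with a median difference of 1.19. Krt17, a keratin of epithelial appendages, averaged 9.19 ± 0.21 in tooth germ and 3.37 ± 0.08 in body (SD, n = 3 each), under the background level on each body array, so that tooth germ was at least 22.4-fold higher (limma adjusted p = 2.47e-14). Krt14 and Krt5, the basal layer pair, were higher by 3.56 ± 0.22 and 2.98 ± 0.28. Of the 18 basal genes, 3 passed the filter through tooth germ arrays alone, Krt17 among them. Of 8 tested dental epithelium genes 5 were higher, led by Sostdc1, a BMP and Wnt antagonist (3.55 ± 0.18, limma adjusted p = 1.85e-11). Wnt10a, 1 of these 8, passed the filter through tooth germ arrays alone. Of 11 tested dental mesenchyme genes 9 were higher, led by the jaw homeobox gene Lhx8 (2.96 ± 0.21, limma adjusted p = 2.11e-09). Since epithelium and mesenchyme were not separated, the arrays do not show which of them carries any of the 8 signals. Muscle, liver and neuron lists were lower in tooth germ in all 12, 9 and 10 tested genes. Of 16 measured late keratinocyte genes 8 passed the filter, 3 of them through tooth germ arrays alone, and 6 of the 8 were called higher. Krtdap, 1 of those 3, was under the background level in body and at least 2.77-fold higher in tooth germ (limma adjusted p = 1.06e-09).

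**Figure D3:**
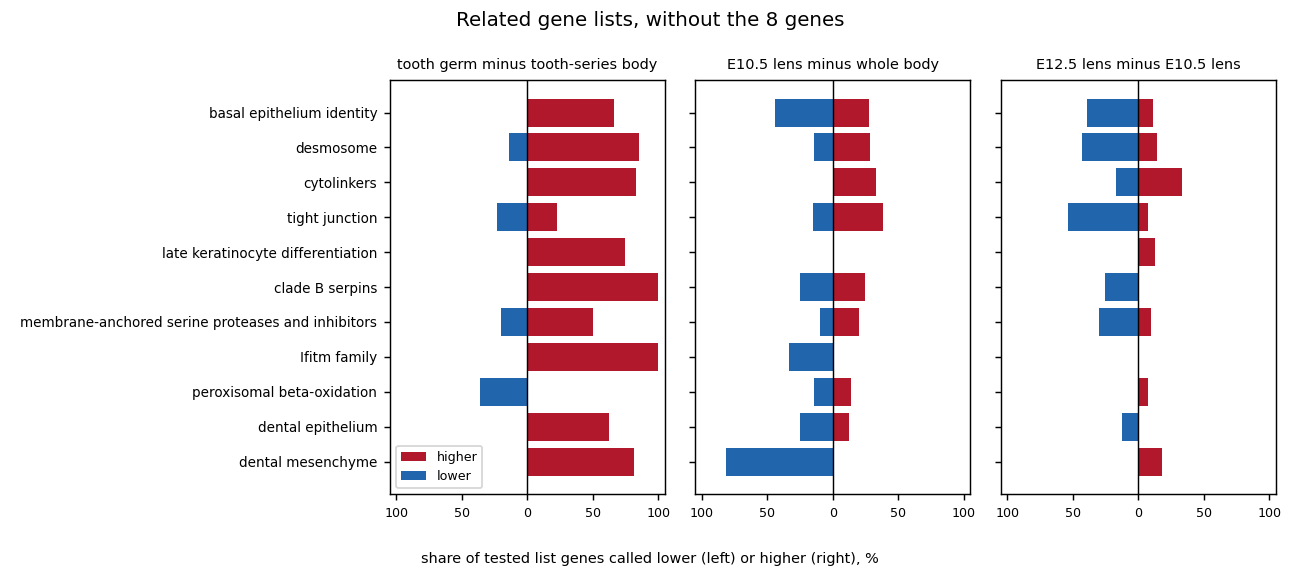
Share of tested genes of each list (rows, without the 8 genes) called higher (red, right) or lower (blue, left) in percent, for tooth germ minus its body, E10.5 lens minus body, and E12.5 minus E10.5 lens. The tested clade B serpins (4 of 16 measured) and Ifitm genes (3 of 6 measured) were called higher in tooth germ than in its body, and peroxisomal genes were not called higher there. Over all tested genes 16.6% were higher and 25.3% lower in that comparison.

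The lens is another organ that buds from surface ectoderm, and its comparisons hold no tooth germ array. At E10.5, 2 of the 8 genes were called against the lens-series body, with Mir205hg higher and Ifitm1 lower, where 13.5% of tested genes were higher and 19.1% lower (17.9% and 16.7% under quantile normalization). Mir205hg averaged 5.19 ± 0.15 in E10.5 lens (SD, n = 3) and 4.29 ± 0.24 in body (n = 4), a difference of 0.90 ± 0.14 (SE, limma adjusted p = 5.8e-05). With the body at the background level this is at least 1.40-fold. The lens-series arrays fall into a set with bright and a set with dim bacterial controls; the difference was 1.07 within the bright set and 0.65 within the dim set, and without lens replicate 3 at E10.5 it was 0.99.

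Ifitm1 was lower in lens than in body at each stage, and no lens array overlapped a body array. It averaged 5.55 ± 0.31 in E10.5 lens, 5.93 ± 0.10 in E11.5 lens and 6.27 ± 0.10 in E12.5 lens (SD, n = 3 per stage), against 8.19 ± 0.23 in body (n = 4). The differences were -2.63 ± 0.21, -2.26 ± 0.21 and -1.92 ± 0.21 (SE), which makes body 6.21-, 4.80- and 3.78-fold higher than lens, with limma adjusted p = 5.95e-09, 5.35e-08 and 3.86e-07. It was the single gene of the 8 called at E11.5 (14.7% of tested genes higher, 22.3% lower; 21.7% and 19.9% under quantile normalization) and at E12.5 (16.6% higher, 26.7% lower; 23.6% and 23.6% under quantile normalization). At E12.5, Acaa1b was called lower too without lens-series body replicate 4 (-0.51, limma adjusted p = 0.0364), a difference between values under the background level. The 3 stages share the same 4 body arrays. In E10.5 lens, 11 of 13 tested mesenchyme markers were lower than in body and 1 was higher. The summed intensity of 14 such markers was 12008 to 13493 in E10.5 lens, 18745 to 19650 in E11.5 lens and 18807 to 20456 in E12.5 lens, against 32336 to 36741 in body. All 12 muscle, 9 liver and 10 neuron genes tested were lower in E10.5 lens than in body as well. Between the bodies, 12 of 13 mesenchyme markers were lower in the tooth series than in the lens series, and 1 was higher. Over all tested genes 31.8% were higher and 31.8% lower there. Ifitm1 averaged 8.37 ± 0.59 and 8.19 ± 0.23 in these bodies (SD). The part of any of these markers in the Ifitm1 difference was not tested.

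Between E10.5 and E11.5 lens, Mir205hg fell by 0.80 ± 0.15 on the log2 scale (limma adjusted p = 0.00444), the single call of the 8, where 1.52% of tested genes were higher and 2.74% lower. All 3 arrays were above background at E10.5 and none at E11.5 or E12.5, so E10.5 was at least 1.40-fold higher than E11.5. The call was lost when only these 6 arrays were fitted (limma adjusted p = 0.117) and within the set with dim bacterial controls (-0.74, limma adjusted p = 0.177), where E10.5 has 1 array. Trp63, named after its values were seen, read 4.11, 3.69 and 3.69 at E11.5, against 5.26, 5.05 and 5.26 at E10.5, which is under the background level at E11.5 and makes E10.5 at least 1.40-fold higher (limma adjusted p = 0.000219). Against body the 2 genes went opposite ways at E10.5. Trp63 averaged 5.19 ± 0.12 in E10.5 lens and 6.39 ± 0.30 in the lens-series body (limma adjusted p = 2.31e-05), while Mir205hg was higher in lens.

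Between E11.5 and E12.5 none of the 8 genes was called by limma, also at an unadjusted p under 0.05, where 3.02% of tested genes were higher and 3.45% lower. Between E10.5 and E12.5, 3 of the 8 were called, where 8.91% of tested genes were higher and 13.2% lower. Mir205hg fell by 0.81 ± 0.15 (limma adjusted p = 0.000672) and Acaa1b by 0.61 ± 0.20 (limma adjusted p = 0.0334) on the log2 scale, and Ifitm1 rose by 0.72 ± 0.23, or 1.64-fold (limma adjusted p = 0.0274). Among 13 tested mesenchyme markers, 7 were higher and 3 lower at E12.5 than at E10.5 (median 0.77). Between E11.5 and E12.5, 1 of them was higher and 3 lower (median -0.22), where Ifitm1 differed by 0.35 ± 0.23 without a call. The part of these markers in the Ifitm1 rise was not tested.

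The last of these calls were the less stable. The Acaa1b call was lost on leaving out any 1 of 5 of the 6 lens arrays, E10.5 replicate 3 being the exception, and 1 array of 6 exceeded background. The Ifitm1 call was lost without E12.5 replicate 2 (0.66, limma adjusted p = 0.0899), E12.5 replicate 3 (0.74, limma adjusted p = 0.0614) or E10.5 replicate 2 (0.54, limma adjusted p = 0.158), and within both bacterial control sets (0.76 and 0.53). The Mir205hg call was lost within the dim set alone (-0.60, limma adjusted p = 0.0893), where its difference was -0.97 within the bright set.

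Epithelial lists were set beside these values for lens at E12.5 against E10.5, where 8.91% of all tested genes were higher and 13.2% lower. Of 18 tested basal epithelium genes 7 were lower and 2 higher (median -0.08), and of 13 tight junction genes 7 were lower and 1 higher (median -0.59). Of 7 desmosome genes 3 were lower and 1 higher (median 0.07), and of 6 cytolinker genes 1 was lower and 2 higher (median 0.30). Of 4 simple epithelium keratins 3 were lower and 0 higher (median -2.57). Epcam and Dsp are named for large falls and do not stand for their lists. Epcam, an adhesion molecule of simple epithelium, averaged 5.36 ± 0.18 at E12.5 and 10.13 ± 0.18 at E10.5 (SD, n = 3 each; difference -4.77 ± 0.16, limma adjusted p = 2.6e-13), and Dsp averaged 4.41 ± 0.20 at E12.5 and 9.89 ± 0.52 at E10.5, under the background level at E12.5 and at least 36.2-fold higher at E10.5 (limma adjusted p = 1.47e-11). Serpinb5, Serpinb1b, Pof1b, Eppk1 and Tmprss11a were under the background level on every E10.5 lens array.

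**Figure D4:**
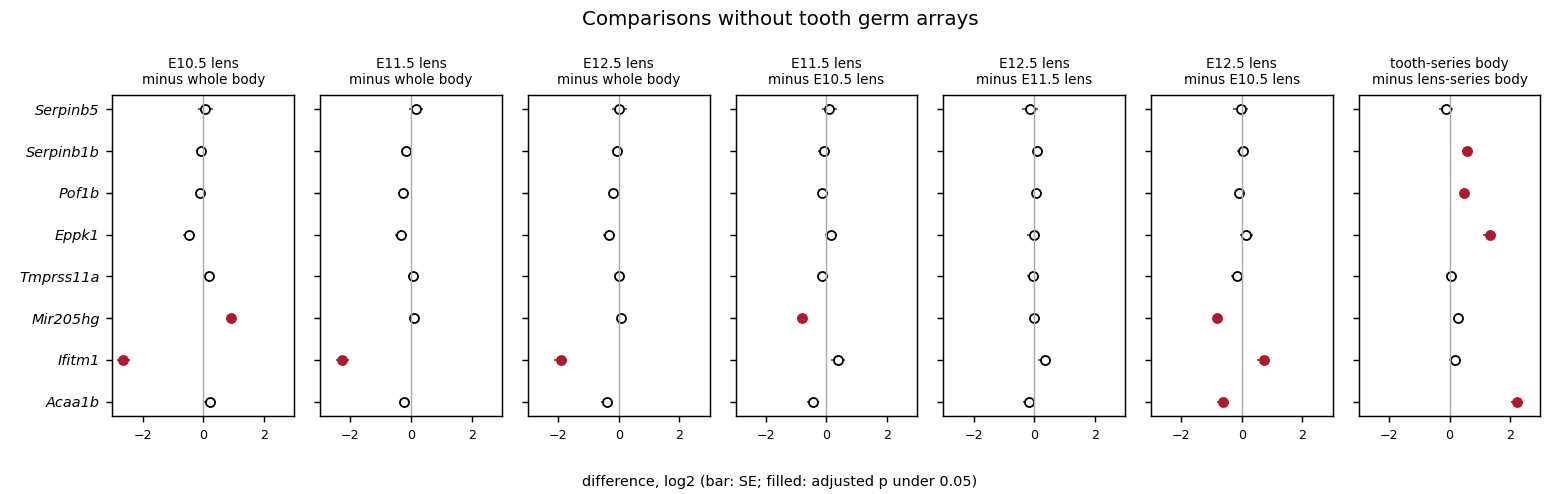
Differences (horizontal axis, log2, bars SE) of the 8 genes in the 7 comparisons without tooth germ arrays, filled where the limma adjusted p is under 0.05. Ifitm1 lies between -2.63 and -1.92 in lens against body, and Acaa1b is 2.22 higher in the tooth-series body than in the lens-series body.

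The bodies of both series were compared to see whether the signal outside the tooth germ differs with the body sample. In the tooth-series body 4 of the 8 genes were higher than in the lens-series body and none lower, where 31.8% of tested genes were higher and 31.8% lower. Acaa1b averaged 6.49 ± 0.09 in the tooth-series body (n = 3) and 4.26 ± 0.34 in the lens-series body (n = 4), a difference of 2.22 ± 0.19 (limma adjusted p = 6.74e-09), at least 3.44-fold. Eppk1 averaged 5.73 ± 0.24 in the tooth-series body and 4.41 ± 0.27 in the lens-series body, a difference of 1.32 ± 0.20 (limma adjusted p = 1.27e-05), at least 2.0-fold, with 1 of 4 lens-series body arrays above background. For both genes the arrays of the 2 groups did not overlap.

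Serpinb1b and Pof1b were called as well, higher by 0.58 ± 0.18 and 0.48 ± 0.13 (limma adjusted p = 0.00827 and 0.00322), yet both groups were below background on every array, so no fold is given. The Serpinb1b call was lost without tooth-series body replicate 1 (0.39, limma adjusted p = 0.0819), and Ifitm1 was called higher without tooth-series body replicate 3 (0.52, limma adjusted p = 0.0152). The bodies differ in their stage range and in array series, and bacterial control probe sets averaged 8.34 to 9.08 in the tooth-series body and 9.59 to 11.18 in the lens-series body, so stage and series cannot be told apart.

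The genes most like each member were taken by Pearson's r of log2 intensity over the 19 arrays, among tested genes, as a description. Arrays of a group share their tissue, and the 3 tooth germ arrays set most of each r. Serpinb5 was closest to Ambn, the enamel protein ameloblastin (r = 0.991), to Tmprss11a (0.989) and to Krt17 (0.981). Ambn averaged 6.79 ± 0.51 in tooth germ and 3.62 ± 0.17 in the tooth-series body (SD, n = 3 each), under background in the body. Serpinb1b and Pof1b were closest to each other (0.990), followed by Nr3c2, the mineralocorticoid receptor (0.985 with Serpinb1b). Eppk1 was closest to Pkp1 (0.989).

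The remaining members had other neighbours. Mir205hg was closest to Tmprss11a (0.968) and Cdcp1 (0.966). Ifitm1 was closest to Lhx6, a homeobox gene of the dental mesenchyme list (0.981), and to Map3k20 (0.980), and Acaa1b to Pgr, the progesterone receptor (0.985), to Cracdl (0.985) and to Inhba, an activin subunit gene that is also on the dental mesenchyme list (0.984). Against the mean profile of the 8 genes, Urah, Itgbl1 and Nr3c2 came first (0.985, 0.985 and 0.983). Over the 28 pairs of members, r had a median of 0.95 (0.77 to 0.99) on the 19 arrays and of 0.15 (-0.44 to 0.91) on the 16 arrays outside the tooth germ, so the members went together mainly through the tooth germ arrays by which they were chosen.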

How the data were processed

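The deposited file holds intensity values, 1 per probe set and array, on a linear scale from 5.4 to 25043.5; per the submitters' processing notes RMA was used and affy 0.7 is listed, with no role stated. The values of the 19 arrays do not share 1 distribution: their medians run from 42.5 to 46.5 and their maxima from 20265.6 to 25043.5. How the notes' RMA was run is not given in the sources used here. Log2 was taken and nothing else normalized. By the platform annotation, 34945 of 45101 probe sets carry the name of 1 gene, and 34741 of these matched RefSeq (GRCm38.p6) by Entrez ID; the build behind the probe design is not given in the sources used here. Tests were two-sided, with limma 3.58.1 in R 4.3.3: 1 mean per group over 19 arrays, moderated by eBayes, Benjamini-Hochberg adjusted over 13320 genes and called at an adjusted p under 0.05. The fit was tested on simulated data. Precision is limited by the few arrays per group.

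The members, gene lists and tests were chosen with earlier results of these data known, and tooth germ differences of members carry no test. An "at least" fold sets each array of the dim group to the no-target level of 4.71 where it lies lower. Named genes are the 8 members, up to 3 called genes with the largest difference per list and 1 of opposite sign, the nearest 3 profiles per member and 10 of the mean, and the serpin and Tmprss11 neighbours; Trp63, Serpinb1a, Acaa1a and the Ifitm relatives were added as close relatives or after values were seen. No 2 arrays of a group share more than 2.04% of exact values. Replicate numbers were checked as pairs: 9 of 45 same-numbered pairs had correlated deviations over 0.1 (-0.53 to 0.64), and only E11.5 with E12.5 lens had this in each pair (0.61, 0.64 and 0.40). Alternatives were other filters, centring, quantile normalization, the mean of all probe sets, an intensity trend, only the groups compared, the replicate block, the bacterial control set as a block and within sets (the last chosen after seeing the data), and leaving out each array.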

Additional observations from a re-analysis of the deposited data

Results flagged for a closer look

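In the lens-series body, 1 of 4 Serpinb1b arrays stood apart from the others: replicate 3 read 3.74, and its gap to the next array made up 0.962 of the group's range, above the 95% limit of Dixon's test for 4 samples. All 4 arrays are under the background level. Chance alone marks about 1 set of values in 20 by such a limit. Here 8 genes were looked at in this 1 group, on the same 4 arrays, so the looks are not independent.

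The lens differences from body changed with stage for 3 genes, by the test between stages, in which the shared body arrays cancel. Mir205hg differed by -0.80 between E11.5 and E10.5 lens and by -0.81 between E12.5 and E10.5 lens. Acaa1b differed by -0.61 and Ifitm1 by 0.72 between E12.5 and E10.5 lens. On leaving out 1 array, the Acaa1b call was lost in 5 of 6 fits and the Ifitm1 call in 3 of 6. Acaa1b was above background on 1 of these lens arrays only. The Mir205hg call between E11.5 and E10.5 was lost with only the groups compared.

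Ifitm1 went opposite ways against body in the tissues: tooth germ was above its body on each array, and lens was below its body on each array. The tooth germ difference minus the lens difference was 6.19 for E10.5 lens, 5.82 for E11.5 lens and 5.47 for E12.5 lens. This difference was not tested, since Ifitm1 was chosen for its tooth germ signal, and the body samples differ between the series.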

How the results depend on the processing

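Over 20 results and 336 alternative settings, 319 stayed the same, 15 lost the call, 2 moved without a test and none reversed. The tooth germ differences of the 8 genes are among these results and carry no call. For them, staying the same means a shift below the SD between arrays. The members were chosen for high tooth germ values, so nothing is read from that steadiness. The 15 lost calls all belong to the tested results. The median tooth germ difference of the 8 genes was 3.53 with and without the replicate block and lay between 3.48 and 3.69 over other settings (3.50 to 3.65 on leaving out 1 array); under quantile normalization Pof1b was at 3.69 and Mir205hg at 3.52. The number of members called was 2 in E10.5 lens against body and 1 at E11.5 in every setting. At E12.5 it was 1, but 2 with the replicate block, within the set with bright bacterial controls and in the range on leaving out 1 array (1 to 2), Acaa1b being added each time. For E11.5 against E10.5 lens it was 1, but 0 with only the groups compared and 0 within the set with dim ones. For E12.5 against E10.5 lens it was 3, but 0 within the dim set and 1 to 3 on leaving out 1 array. For E12.5 against E11.5 lens it was 0 throughout, the replicate block included, which changed no other call. For the bodies it was 4 (3 to 5 on leaving out 1 array). The causes were not tested. Over all genes, with only the groups compared, 76 were higher and 63 lower at E12.5 than at E11.5, against 402 and 459. Quantile normalization turned the all-gene balance in tooth germ against its body, with 3151 higher and 2764 lower, against 2214 and 3370. Signal near the background level limits the sizes of most members outside the tooth germ.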
